A study of Homo sapiens with 18 samples.

Results

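The 8 genes described here control how much sterol a cell makes, takes up and exports, and were followed in A549 cells exposed to Ludox silica nanoparticles (NPs). They are 8 of the 30484 gene or transcript names on the array, namely SREBF1, SREBF2, INSIG1, INSIG2, STARD4, NPC1, NPC2 and ABCA1. They were chosen by name and role with results of these arrays already known, and which of their values led to the choice is not recorded. Every comparison of treated with untreated cells is therefore treated as seen, and the adjusted p-values, which were computed over all probes, describe the fit and are no independent evidence. Every non-control probe that the array names for one of the 8 was taken, which gave 13 of the 41000 probes on the array. The filter on dim spots kept 11 of the 13, as it kept 28665 of all 41000, and each of the 8 genes had at least 1 probe left.

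SREBF1 and SREBF2 encode the sterol regulatory element binding proteins, transcription factors that are made as membrane proteins of the endoplasmic reticulum. When membrane sterol is low, the escort protein SCAP carries them to the Golgi, where proteases release the part that enters the nucleus and switches on genes of cholesterol and fatty acid synthesis. When sterol is plentiful, INSIG1 and INSIG2 hold the escort back, and INSIG1 is itself a target of the pathway, so that it forms a feedback loop. NPC1 and NPC2 pass cholesterol out of lysosomes, STARD4 carries it through the cytosol, and ABCA1, a target of the oxysterol receptor LXR, exports it to apolipoproteins at the cell surface.

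RNA from A549 cells, an established line from a human lung adenocarcinoma, was hybridised to 18 one-colour Agilent arrays in 6 groups of 3. Cells were exposed for 2 h in medium without serum, at 0.02 mg/mL according to the methods, and then recovered in medium with serum. The groups were SM30 NPs (9 nm) with 3 h of recovery, AS30 NPs (18 nm) with 3 h, AS30 NPs with 22 h, and for each of these a group of control cells that went through the same steps without NPs, the change to medium without serum included. SM30 was not measured at 22 h, and A549 cells are a tumour line, which limits them as a model of alveolar epithelium. RNA came from whole cultures, so a change in the number of cells that carry a transcript and a change per cell cannot be told apart.

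Between 51.9% and 72.4% of the spots of an array were well above background, a flag that the scanner software sets for each spot. No spot was saturated. All 5 epithelial markers, EPCAM, KRT8, KRT18, KRT19 and CDH1, were well above background on all 18 arrays. Among markers of other cell types, PTPRC, COL1A2, COL3A1, PECAM1, VWF and TEK were so on 0 arrays, whereas CD3E and CD14 were on 18, ITGAM on 16 and COL1A1 on 15. Of the 5 slides, slide 4 held SM30 array A and the 3 SM30 controls, slide 5 held SM30 arrays B and C, slide 1 the AS30 controls at 3 h, and slide 2 the AS30 arrays at 3 h. Slide 3 held the AS30 arrays at 22 h, and the 22 h controls A, B and C lay on slides 1, 2 and 3. In the AS30 sets, control C at 3 h had 52.4% of its spots well above background beside 61.7% and 61.9% in controls A and B, and treated array B at 22 h had 56.9% beside 64.5% and 67.0%.

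The promoters of 4 of the genes are printed, and each holds letters that SREBP, its partner NF-Y or LXR is known to read. The first window of NPC2 holds NF-Y boxes too and is not printed. Each line gives the 250 bases before the transcription start from RefSeq on GRCh38.p14, on the strand of the gene, with matches to any of the 4 motifs searched in capitals.
SREBF2: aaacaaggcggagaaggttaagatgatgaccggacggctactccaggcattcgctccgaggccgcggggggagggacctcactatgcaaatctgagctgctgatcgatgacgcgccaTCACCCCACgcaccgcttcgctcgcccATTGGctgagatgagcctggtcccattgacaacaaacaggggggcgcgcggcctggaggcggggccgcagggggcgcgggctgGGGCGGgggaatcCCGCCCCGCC
INSIG1: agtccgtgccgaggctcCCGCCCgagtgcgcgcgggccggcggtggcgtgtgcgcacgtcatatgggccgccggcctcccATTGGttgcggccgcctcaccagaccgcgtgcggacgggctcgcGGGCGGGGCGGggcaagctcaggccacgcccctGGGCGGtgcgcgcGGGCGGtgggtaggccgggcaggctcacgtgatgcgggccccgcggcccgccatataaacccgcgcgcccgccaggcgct
STARD4: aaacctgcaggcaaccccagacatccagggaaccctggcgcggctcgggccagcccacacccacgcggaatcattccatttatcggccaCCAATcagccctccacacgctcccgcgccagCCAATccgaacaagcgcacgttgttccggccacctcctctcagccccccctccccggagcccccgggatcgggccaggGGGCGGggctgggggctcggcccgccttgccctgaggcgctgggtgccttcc
ABCA1: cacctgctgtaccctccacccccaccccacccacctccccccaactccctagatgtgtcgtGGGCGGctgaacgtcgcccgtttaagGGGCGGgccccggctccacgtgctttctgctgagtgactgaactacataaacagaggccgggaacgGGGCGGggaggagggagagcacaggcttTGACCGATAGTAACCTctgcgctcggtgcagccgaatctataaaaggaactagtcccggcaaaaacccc
These stretches lie at chr22:41832855-41833104 on the plus strand for SREBF2, chr7:155297628-155297877 on the plus strand for INSIG1, chr5:111512536-111512785 on the minus strand for STARD4 and chr9:104928156-104928405 on the minus strand for ABCA1. The motifs were the sterol regulatory element TCACNCCAC, the NF-Y box CCAAT, the GC box GGGCGG and the LXR element, which is 2 copies of AGGTCA with 4 letters between them and at most 1 mismatch in each. Both strands were searched in windows of 300 bases, from 250 before to 50 after the start, and matches may overlap.

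The sterol regulatory element matched in 1 of the 8 genes, SREBF2, where it lies from -133 to -125, counted in bases from the start, and in 1.13% of all 35116 windows. The NF-Y box matched in 4 of the 8, which are SREBF2, INSIG1, STARD4 and NPC2, and in 34.6% of all windows. In SREBF2 it stands on the reverse strand from -106 to -102, in INSIG1 on the reverse strand from -170 to -166, and in STARD4 on the forward strand from -161 to -157 and from -130 to -126. NPC2 has 2 RefSeq starts, and the first of its windows holds 2 reverse boxes whereas the other holds none. The LXR element matched in ABCA1, on the reverse strand from -69 to -54, and in 1.38% of all windows. The GC box matched in all 8 genes and in 45.0% of all windows. A match is a string of letters and not a measured binding site, and no match says only that the letters are absent from these windows.

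**Figure D1:**
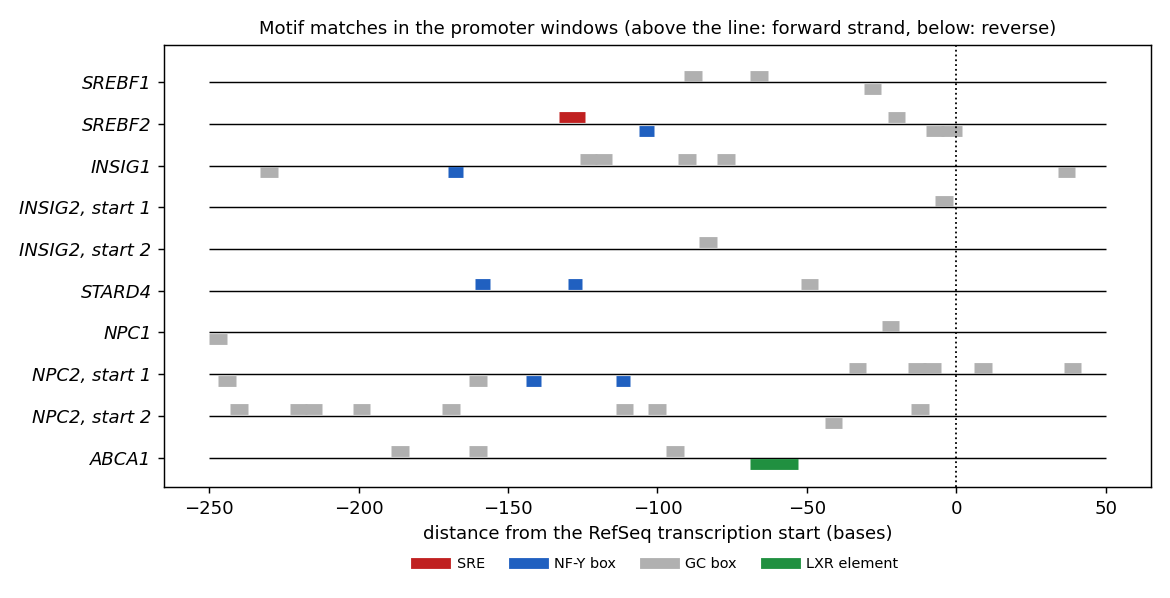
Matches to the 4 motifs in the promoter windows of the 8 genes, drawn by distance from the RefSeq transcription start in bases, with forward matches above each line and reverse matches below it (INSIG2 and NPC2 have 2 starts each). NF-Y boxes stand in SREBF2, INSIG1, STARD4 and the first window of NPC2, the only SRE match is in SREBF2, and the only LXR match is in ABCA1.

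Of the 8 genes, 1 passed the threshold after SM30 at 3 h, 0 after AS30 at 3 h and 3 after AS30 at 22 h, all of them higher in treated cells. INSIG1 rose after SM30 and after AS30 at 22 h, and STARD4 and NPC2 rose after AS30 at 22 h. SREBF1 and ABCA1 were not called in any of the 3. These calls come from limma on the 9 log2 ratios of treated over control arrays of the same letter (pairs A, B and C, a match taken from the labels since the methods do not name it), with Benjamini-Hochberg adjustment over all probes tested and 0.05 as the threshold. Over all probes, 7.49% were called after SM30, 2.52% after AS30 at 3 h and 3.58% after AS30 at 22 h. The 0 members after AS30 at 3 h stand beside 6964 of all 28596 probes with an unadjusted p under 0.05. The median log2 change of the 8 genes was 0.36, 0.23 and 0.76 in that order, and the medians over all probes were -0.05, 0.01 and 0. Counting by arrays on the brightest probe of each gene, all 3 treated arrays lay above all 3 controls for 7 of the 8 genes after SM30. This held for 2 after AS30 at 3 h and 4 after AS30 at 22 h, and for 19.2%, 13.2% and 12.8% of all probes. The second probes of SREBF2 and INSIG2 overlapped their controls after SM30 and after AS30 at 3 h. At 22 h both lay above theirs.

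**Figure D2:**
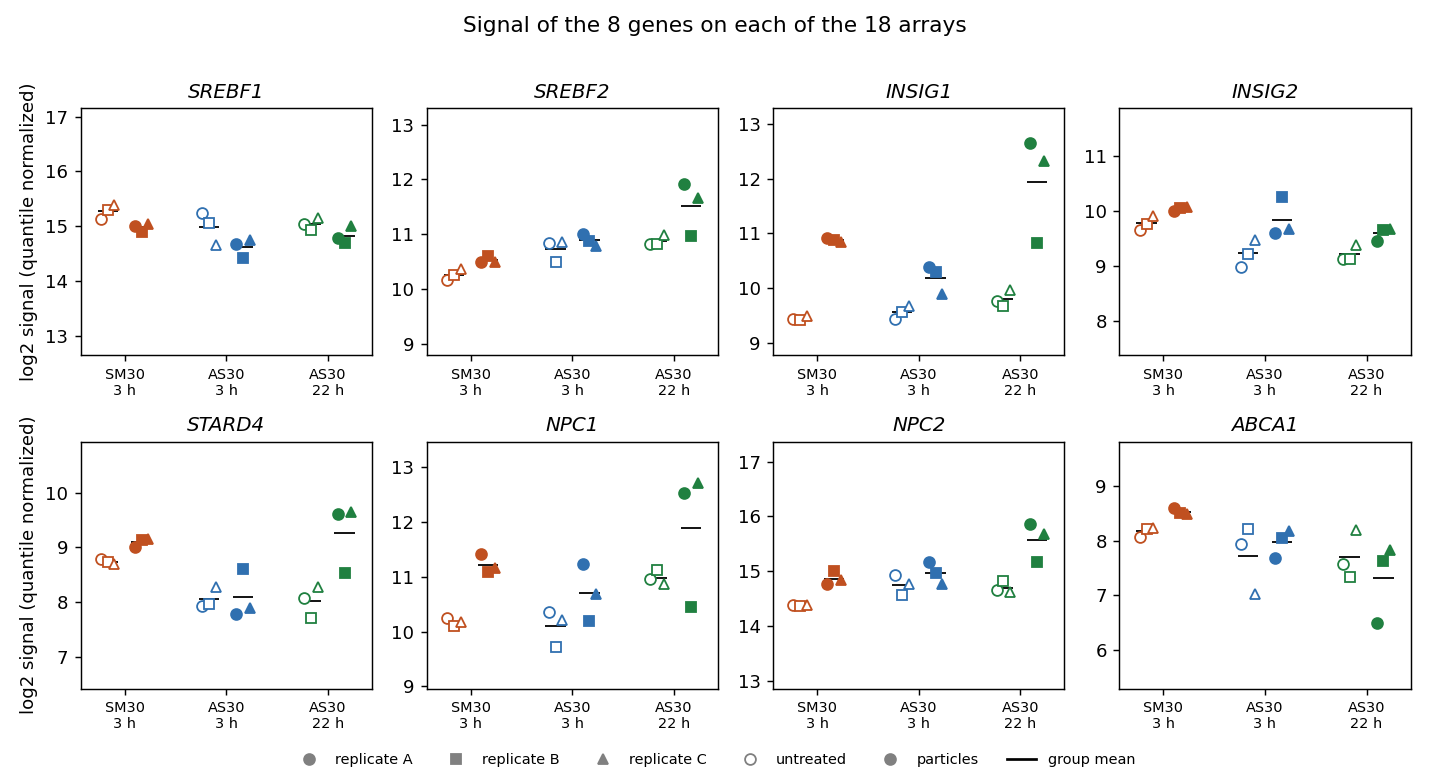
Quantile normalized log2 signal of the 8 genes (1 probe each) on the 18 arrays, by particle and recovery time. Open marks are untreated cells, filled marks are cells with NPs, mark shapes are replicates A, B and C, and lines are group means. Each axis spans the same number of log2 units. INSIG1 with NPs lies above its controls in all 3 sets, and at 22 h array B lies below arrays A and C for INSIG1, STARD4, NPC1, NPC2 and SREBF2.

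INSIG1, which holds the SREBP escort in the endoplasmic reticulum, had higher signal in the treated array in 9 of 9 pairs. Its probe lies at chr7:154731004-154731063, on build hg18 as for all probe positions given here. After SM30 the log2 signal read 10.92, 10.88 and 10.84 with NPs (array A first, then B and C, as throughout) and 9.43, 9.42 and 9.50 in the controls. The groups did not overlap, and the arrays within each lay close together. The fitted log2 change was 1.43 (SE 0.28, 95% interval 0.78 to 2.08), a 2.69-fold rise, with a limma adjusted p of 0.023. Within slide 4, which held 1 treated array and the 3 controls, the difference was 1.47. A fit with slide as a fixed block rests on those same arrays, SM30 arrays B and C being alone on slide 5, so it gives this 1.47 again and takes the spread of the 1 treated array from the other groups (adjusted p 0.18). Without SM30 pair A, B or C the change was 1.40, 1.41 and 1.47 with adjusted p of 0.099, 0.12 and 0.12, so the call needed all 3 pairs while the size did not.

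After AS30 at 3 h INSIG1 measured 10.39, 10.29 and 9.89 in treated cells and 9.43, 9.57 and 9.68 in controls. The treated arrays were again all above the controls, with the narrowest gap in pair C. The log2 change was 0.63 (SE 0.28, 95% interval -0.02 to 1.28), with an adjusted p of 0.21. All 3 treated arrays lay on slide 2 and all 3 controls on slide 1. These arrays alone cannot separate slide from treatment. With slide as a fixed block, only the 22 h controls A and B, on slides 1 and 2, link the 2 slides. Over the 18 alternatives, that fit included, the change ranged from 0.43 to 0.84 and was never called.

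After AS30 at 22 h INSIG1 reached 12.64, 10.83 and 12.32 with NPs, beside 9.76, 9.68 and 9.97 in the controls. Array B was far below A and C and still above every control. The log2 change was 2.13 (SE 0.28, 95% interval 1.48 to 2.78), which is 4.37-fold, with an adjusted p of 0.018. Without pair B it was 2.61, and within slide 3, which held the 3 treated arrays and control C, it was 1.96. The fit with slide as a fixed block has here only control C beside the treated arrays and gave that same value with an adjusted p of 0.26. The call was also lost without pair A (1.75, adjusted p 0.093) and without pair C (2.02, adjusted p 0.059). The share of spots well above background was lower in the 22 h controls, from 51.9% to 58.4%, than on treated arrays A and C, and its part in the change was not tested.

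The order of the group means of INSIG1 was AS30 at 22 h (11.93 ± 0.97, SD, n = 3), SM30 at 3 h (10.88 ± 0.04), AS30 at 3 h (10.19 ± 0.26), and then the controls of AS30 at 22 h (9.80 ± 0.15), of AS30 at 3 h (9.56 ± 0.13) and of SM30 (9.45 ± 0.04). AS30 at 22 h and SM30 overlapped through array B of the former. SM30 and AS30 at 3 h did not overlap, but their arrays share no slide. The difference between the responses of INSIG1 to these NPs was not called (limma adjusted p 0.40). AS30 at 3 h overlapped the controls at 22 h in its array C, and the control groups touched or overlapped their neighbours. The 3 control groups differed by less than the change in treated cells, and no control contrast of INSIG1 was called.

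INSIG2, the second escort-binding protein, had higher signal in treated cells in 9 of 9 pairs on its brighter probe but was called in none of the 3 sets. That probe spans an exon junction, with its 60 bases spread over 1151 bases at chr2:118581181-118582331. After AS30 at 3 h it read 9.61, 10.26 and 9.67 with NPs and 8.99, 9.22 and 9.48 without. The groups did not overlap, and the log2 change was 0.62 (SE 0.16, 95% interval 0.26 to 0.98) with an adjusted p of 0.076. Without pair C, whose control was the dim array, the change was 0.83 with an adjusted p of 0.027, and within the probes well above background on all 18 arrays the adjusted p was 0.050, just under the threshold. With slide as a random block over the 18 arrays the change was 0.62 with an adjusted p of 0.017. The change was 0.26 after SM30 (adjusted p 0.34) and 0.39 after AS30 at 22 h (adjusted p 0.19). The second probe, at chr2:118583434-118583493, gave -0.07, 0.30 and 0.37 in the 3 sets, none of them called.

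SREBF2, which drives mainly the cholesterol synthesis genes, was measured by 2 probes, at chr22:40632145-40632204 and chr22:40632497-40632556. On the first, AS30 cells at 22 h read 11.92, 10.97 and 11.66 and their controls 10.82, 10.83 and 10.98. Arrays A and C lay above every control and array B within them. The log2 change was 0.64 (SE 0.18, 95% interval 0.23 to 1.04) with an adjusted p of 0.085, and the second probe gave 0.79 (SE 0.19) with an adjusted p of 0.056. Without pair B these became 0.89 (adjusted p 0.034) and 1.1 (adjusted p 0.013). With every array kept, the first probe was also called with slide as a random block (0.65, adjusted p 0.043), and the second among probes well above background on all 18 arrays (0.79, adjusted p 0.035). These were the only calls among the 18 alternatives, with a range of 0.41 to 0.89 on the first probe and 0.41 to 1.1 on the second. At 3 h the first probe gave 0.27 after SM30 and 0.15 after AS30, and the second 0.06 and -0.16, with none called.

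SREBF1, which acts more on fatty acid synthesis genes, was not called in any set, and its 2 probes disagreed after AS30 at 3 h. The brighter probe, at chr17:17656144-17656203, read 14.67, 14.42 and 14.75 with AS30 and 15.24, 15.06 and 14.66 without, a log2 change of -0.38 (SE 0.15, adjusted p 0.18). The second, at chr17:17656672-17656731, read 10.61, 10.26 and 10.63 with AS30 and 9.35, 9.14 and 10.54 without, a change of 0.82 (SE 0.24, adjusted p 0.098). On both probes control C stood apart from controls A and B, in opposite directions. Without pair C both were called, at -0.61 (adjusted p 0.034) and 1.19 (adjusted p 0.026), with opposite signs, and the second was called with slide as a random block as well (0.88, adjusted p 0.034), so no direction can be given for the gene at that time. After SM30 the brighter probe read 15.01, 14.89 and 15.04 against 15.14, 15.30 and 15.38 in controls. SREBF1 alone among the 8 had all its treated arrays below the controls, as did 23.8% of all probes. The change was -0.29 with an adjusted p of 0.27, and the second probe of the gene overlapped its controls and gave 0.00. At 22 h the probes gave -0.21 and 0.06.

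STARD4, the cytosolic carrier that brings cholesterol to the endoplasmic reticulum, rose after AS30 at 22 h. Its probe lies at chr5:110862587-110862646. The treated arrays read 9.60, 8.53 and 9.64 and the controls 8.08, 7.71 and 8.27. The groups did not overlap, and array B was the lowest of the treated arrays as its control was the lowest of the controls. The log2 change was 1.24 (SE 0.21, 95% interval 0.76 to 1.71), or 2.36-fold, with an adjusted p of 0.025, and within slide 3, with control C alone, it was 0.99. Over the 18 alternatives the change ranged from 0.64, with normexp background correction, to 1.45, and it was called in 13. The adjusted p was 0.55 with slide as a fixed block, which again has 1 control, 0.14 without pair A and 0.084 without pair C. It was also 0.056 and 0.057 when SM30 pair A or B was left out, which share the estimate of the spread and leave the change itself at 1.24.

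At 3 h STARD4 gave 0.36 (95% interval -0.12 to 0.83, adjusted p 0.32) after SM30 and 0.03 (95% interval -0.44 to 0.51, adjusted p 0.94) after AS30. The AS30 pairs at 3 h were split, at -0.14, 0.64 and -0.40. The untreated cells of the SM30 set stood at 8.74 ± 0.05 (SD, n = 3), above 8.06 ± 0.19 in the AS30 set at 3 h and 8.02 ± 0.28 at 22 h, and the order of the means put AS30 at 22 h first (9.26 ± 0.63), then SM30 (9.10 ± 0.09) and its controls. AS30 at 22 h overlapped both of these groups. Through its array B at 8.53 it also overlapped AS30 at 3 h, which reached 8.60. The remaining 3 groups overlapped one another.

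NPC2, the soluble lysosomal protein that takes cholesterol from internal membranes and hands it to NPC1, rose after AS30 at 22 h. Its probe lies at chr14:74016507-74016566. The treated arrays read 15.86, 15.17 and 15.68 and the controls 14.65, 14.82 and 14.62. The groups did not overlap, and pair B had the smallest ratio, 0.35 beside 1.20 and 1.06. The log2 change was 0.87 (SE 0.17, 95% interval 0.48 to 1.26), which is 1.83-fold, with an adjusted p of 0.037. It was 0.95 within slide 3. The call was the least stable of the 4, since the gene was called in 8 of 18 alternatives in the processing or the arrays used, and its change ranged from 0.71 to 1.13 over them. Scaling to the 75th percentile gave an adjusted p of 0.056, normexp background correction 0.056, and keeping dim spots 0.063. It was 0.28 with slide as a fixed block, 0.19 without pair A, 0.12 without pair C, and 0.071, 0.073 and 0.064 without SM30 pair A, B or C and 0.064 without AS30 3 h pair A. After SM30 NPC2 read 14.76, 15.00 and 14.84 with NPs and 14.39, 14.36 and 14.39 without. These groups did not overlap either, and the change of 0.49 (95% interval 0.10 to 0.88) had an adjusted p of 0.12.

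NPC1, the lysosomal membrane protein that receives cholesterol from NPC2, was not called in any set, and at 22 h its pairs pointed in opposite directions. Its probe spans an exon junction, at chr18:19366216-19367345. AS30 cells at 22 h read 12.52, 10.45 and 12.70 and their controls 10.96, 11.13 and 10.86, so that arrays A and C lay above all controls and array B below all of them. The log2 change was 0.91 (SE 0.40, 95% interval -0.01 to 1.83) with an adjusted p of 0.22. Without pair B it was 1.70 with an adjusted p of 0.0057. After SM30 the arrays read 11.42, 11.08 and 11.15 against 10.24, 10.10 and 10.17. All pairs were close, at 1.18, 0.98 and 0.99, and the change of 1.05 (SE 0.40, 95% interval 0.13 to 1.97) had an adjusted p of 0.15. The 3 classes share 1 estimate of the spread, and with AS30 pair B at 22 h left out the adjusted p after SM30 was 0.0056 at the same change. After AS30 at 3 h the change was 0.61 (95% interval -0.31 to 1.53, adjusted p 0.38).

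ABCA1, the exporter, was measured by 3 probes, of which the filter kept the one at chr9:106583525-106583584. After AS30 at 22 h it read 6.50, 7.63 and 7.83 with NPs and 7.57, 7.34 and 8.19 without. The groups overlapped, the pairs gave -1.07, 0.28 and -0.36, and the log2 change was -0.38 (SE 0.31, 95% interval -1.09 to 0.32) with an adjusted p of 0.50. After AS30 at 3 h the change was 0.25 (adjusted p 0.65), where pair C, with the dim control, gave 1.16 and pairs A and B gave -0.24 and -0.17. After SM30 the probe read 8.60, 8.50 and 8.48 with NPs and 8.06, 8.21 and 8.23 without. The treated arrays lay above the controls, and the change of 0.36 had an adjusted p of 0.51.

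The other 2 ABCA1 probes, at chr9:106658010-106658069 and chr9:106586194-106586253, were dropped by the filter and are without a test. Both were well above background on 3 of 3 SM30 arrays and on 0 of 3 of their controls. The share of all probes with this pattern is not given here. Of all spots, 70.3%, 69.0% and 72.4% were well above background on the SM30 arrays, and 68.5%, 69.9% and 65.5% on their controls. The mean log2 signal of the 2 probes was 4.49 and 4.33 with SM30. Each control array was given the higher of the probe's own signal and the lowest signal of any probe well above background there. Against the mean of these control values, 4.14 for both probes, the SM30 means were 1.27-fold and 1.14-fold higher. SM30 array A of the second probe read 4.12, below that value. The measured control means were 3.41 and 3.62. In the AS30 sets the first probe was well above background on 1 of 3 treated arrays at 22 h and on no other array, and the second on none.

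**Figure D3:**
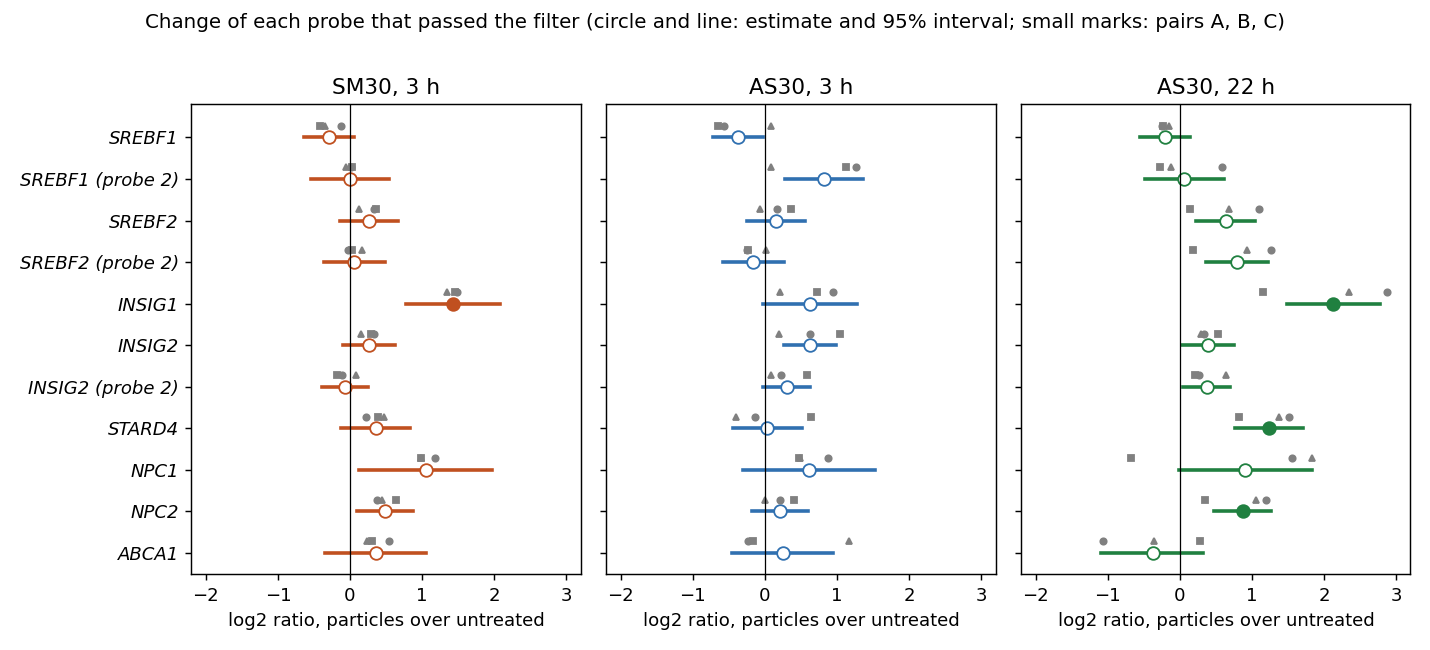
Log2 ratio of cells with NPs over untreated cells for the 11 probes that passed the filter, by particle and recovery time. Large circles with lines are limma estimates with 95% intervals, filled where the adjusted p was under 0.05, and small marks are the pairs A (circle), B (square) and C (triangle). Filled circles are INSIG1 after SM30 and INSIG1, STARD4 and NPC2 after AS30 at 22 h, and NPC1 at 22 h has pair B at -0.68 with the others at 1.56 and 1.84.

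The differences between responses were tested in the same fit. Between SM30 and AS30 at 3 h, 0 of the 8 genes were called, beside 0.014% of all probes, and 4176 of 28595 probes had an unadjusted p under 0.05. INSIG1 responded by 0.80 more to SM30 on the log2 scale (95% interval -0.12 to 1.72, adjusted p 0.40). The interval leaves room for a difference of either sign, so the particles were not shown to act alike or apart on INSIG1. Between AS30 at 22 h and at 3 h, 0 of the 8 were called, beside 0.0285% of all probes, with 4735 of 28086 at an unadjusted p under 0.05. The largest differences were 1.50 for INSIG1 (95% interval 0.58 to 2.41, adjusted p 0.16) and 1.20 for STARD4 (95% interval 0.53 to 1.87, adjusted p 0.14). Without AS30 pair B at 22 h the difference for INSIG1 was 1.98, with an adjusted p of 0.042. In an F-test over the 3 classes 0 of the 8 were called, beside 0.0926% of all probes, with 5454 of 28085 at an unadjusted p under 0.05.

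Untreated cells were compared with each other as well. Between 22 h and 3 h in the AS30 controls, 0 of the 8 were called when all 18 arrays entered 1 model, beside 1.37% of all probes, and 4230 of 28179 had an unadjusted p under 0.05. The largest difference on a main probe was 0.88 for NPC1, with 10.96, 11.13 and 10.86 at 22 h and 10.36, 9.72 and 10.21 at 3 h (95% interval -0.05 to 1.82, adjusted p 0.36). The second SREBF1 probe gave 1.02 (95% interval 0.41 to 1.63, adjusted p 0.099), while its main probe gave 0.05. Without AS30 3 h pair C, which held the dim control, that second probe was called at 1.45 (adjusted p 0.0044). Between the SM30 and AS30 controls at 3 h, 1 of the 8 was called, INSIG2, beside 26.8% of all probes. It was higher in the SM30 set, by 0.56 (SE 0.17, adjusted p 0.026) on one probe and 0.45 (SE 0.13, adjusted p 0.024) on the other, and these sets share no slide. The first call was lost without SM30 pair B, SM30 pair C or AS30 3 h pair A. The second was lost with scaling to the 75th percentile (0.35), with normexp background correction (0.18) and without SM30 pair A, B or C. No fit with slide as a fixed block can compare these sets.

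Genes that SREBP is known to switch on, and other genes of sterol traffic, were taken from lists written with earlier results of these arrays known. Of 20 enzymes of cholesterol synthesis 18 were higher after AS30 at 22 h, 0 lower, with a median log2 change of 1.51. The 3 largest changes were 2.49 for MVD (adjusted p 0.018), 2.29 for TM7SF2 (adjusted p 0.016) and 2.15 for MSMO1 (adjusted p 0.022). MVD makes isopentenyl pyrophosphate from mevalonate pyrophosphate, TM7SF2 is a sterol reductase and MSMO1 a sterol methyl oxidase. After SM30 at 3 h 0 of 20 were called, with a median of 0.21, and the largest values were 1.74 for IDI1 (adjusted p 0.051), the isomerase that follows MVD, and 0.60 for MVD. After AS30 at 3 h 0 of 20 were called, with a median of 0.11, and MSMO1 at 0.52 was farthest from 0. The difference between AS30 at 22 h and 3 h had a median of 1.40 over the list and 0 of 20 called. At 22 h the count was 0 with slide as a fixed block, 0 without pair A, 3 without pair C, and 10 and 9 without SM30 pair A or B, whereas the median stayed between 1.25 and 1.89 over all 18 alternatives.

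Of 11 genes of fatty acid synthesis, 5 were higher after AS30 at 22 h, with a median of 0.72 over the list. They were led by ACSS2, which makes acetyl-CoA from acetate, at 2.93 (adjusted p 0.018), the phosphatidate phosphatase LPIN1 at 1.51 (adjusted p 0.043) and the elongase ELOVL6 at 1.50 (adjusted p 0.039). After SM30 at 3 h LPIN1 rose by 1.59 (adjusted p 0.023) and GPAM, which starts triglyceride synthesis, fell by 0.72 (adjusted p 0.013), and after AS30 at 3 h 0 of 11 were called. There LPIN1 gave 0.73 and GPAM -0.52. The count at 22 h was 0 with slide as a fixed block and without pair A or pair C, 7 without pair B, 2 and 1 without SM30 pair A or B, and 3 without SM30 pair C, without AS30 3 h pair A or B, or with dim spots kept. The SM30 calls of both genes were lost with slide as a fixed block and without SM30 pair A or B, and that of GPAM also without pair C.

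Of 8 genes for proteins that activate SREBP or turn over INSIG and the synthesis enzymes, among them SCAP and the proteases MBTPS1 and MBTPS2, 0 were called in any of the 3 sets. Their median changes were -0.05 after SM30, 0.11 after AS30 at 3 h and 0.06 after AS30 at 22 h. The largest values were -0.29 for ERLIN1 and -0.23 for MBTPS2 after SM30, 0.77 for C12orf49 and -0.40 for ERLIN2 after AS30 at 3 h, and 0.39 for C12orf49 at 22 h. A second C12orf49 probe gave -0.56 after AS30 at 3 h (adjusted p 0.17) and 0.00 at 22 h, so its probes disagree in sign at 3 h and leave no direction for the gene.

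Among 10 receptors, partners and targets of LXR, 1 was called in each AS30 set on the probe that stands for the gene, ABCG1, a sterol exporter like ABCA1. It was higher at 3 h by 1.24 (adjusted p 0.022) and lower at 22 h, where it fell by 0.96 (adjusted p 0.040). The call at 22 h held in 5 of 17 alternatives and the change came as close to 0 as -0.07 there. The call at 3 h held in 13 of 17, with changes from 0.34 to 1.73, and was lost with slide as a fixed block and without SM30 pair A or B or AS30 3 h pair B. SMPDL3A, a secreted phosphodiesterase, passed the threshold at 22 h on its second probe, at 1.83 or 3.56-fold (adjusted p 0.029), but only 1 of the 3 pairs was measured there, with the spread taken from the other sets. Its brighter probe, measured in all pairs, gave 0.93 (adjusted p 0.093). After SM30 0 of 10 were called, with LPCAT3 at 0.77 and ABCG1 at 0.70. The list medians were 0.23, 0.30 and 0.06.

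Of 15 other genes of sterol uptake, transfer and storage, 1 was called on the probe that stands for the gene, LIPA, the lysosomal acid lipase that frees cholesterol from its esters upstream of NPC2 and NPC1. It rose by 1.00 after AS30 at 22 h (adjusted p 0.017), a call that was lost with slide as a fixed block and without pair A or pair C. TMEM97, a sterol-binding membrane protein, was higher at 22 h on 2 other probes, by 1.13 (adjusted p 0.036) and 1.15 (adjusted p 0.046), while its brightest probe gave 1.05 (adjusted p 0.055). The list medians were -0.03, -0.05 and 0.18. After SM30 STARD5 at -0.64 and LRP1 at 0.55 were farthest from 0, and after AS30 at 3 h VLDLR at -0.68 and TMEM97 at -0.54. Of 6 enzymes that make or change oxysterols, 3 could be tested at 3 h and 2 at 22 h, and HSD3B7 was the 1 called, at 1.09 after AS30 at 22 h (adjusted p 0.036). That call held in 9 of 17 alternatives and was lost without AS30 22 h pair A or B, without any 1 SM30 pair, with slide as a fixed block, with normexp correction and with dim spots kept. After SM30 HSD3B7 gave 0.44 and SULT2B1 -0.31, and after AS30 at 3 h CYP7B1, measured in 2 of the 3 pairs, gave 1.48 (adjusted p 0.17) and SULT2B1 -0.41. Among the epithelial markers KRT19 rose by 1.21 at 22 h (adjusted p 0.023), and the other 4 were not called. That call held in 11 of 18 alternatives and was lost without the replicate block, with slide as a fixed or a random block, without SM30 pair A or B and without AS30 22 h pair A or C.

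**Figure D4:**
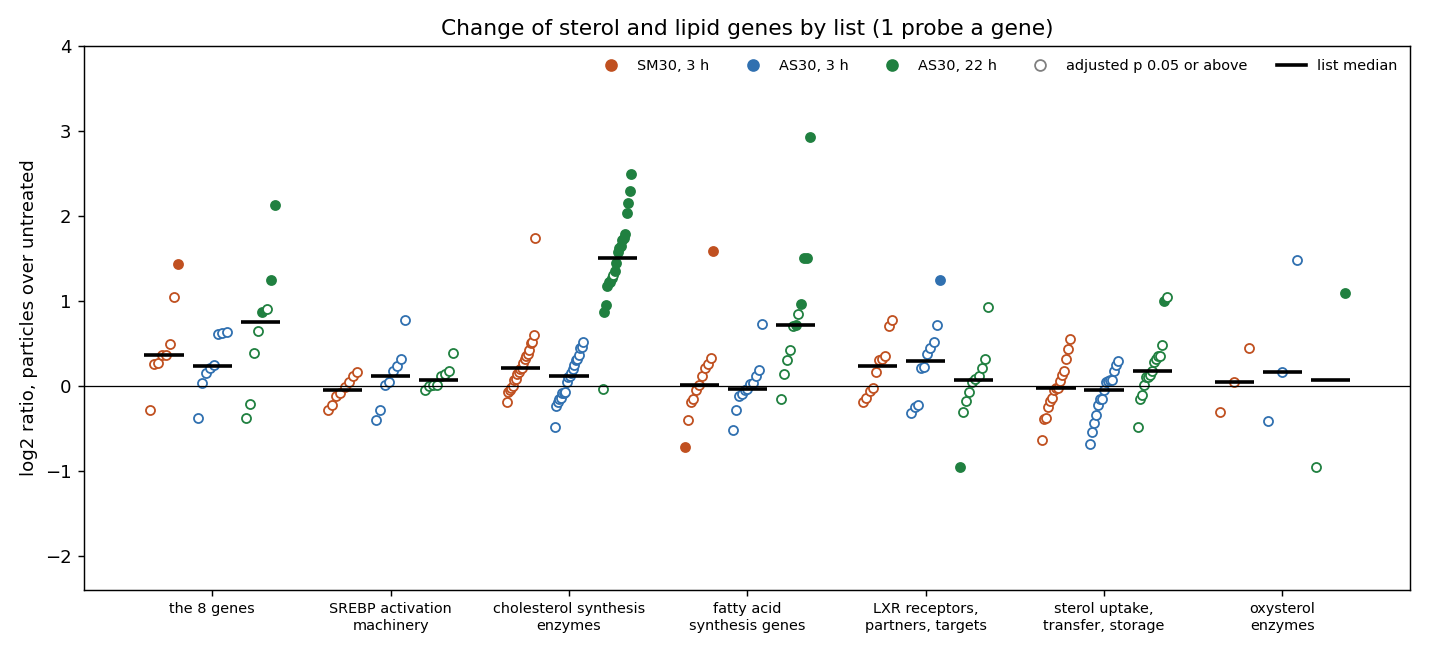
Log2 ratio of cells with NPs over untreated cells for each gene of 7 lists (1 probe a gene), with the 3 sets side by side in each list. Filled circles had an adjusted p under 0.05, open circles did not, and black bars are list medians. The cholesterol synthesis enzymes at 22 h have a median of 1.51, with 18 of 20 filled, and the SREBP activation machinery has no filled circle.

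The members were also compared by their profiles over the 9 log2 ratios. Pearson's r with INSIG1 was 0.95 for NPC2, 0.91 for SREBF2, 0.85 for STARD4 and 0.65 for NPC1, and it was 0.07 for SREBF1, -0.28 for INSIG2 and -0.76 for ABCA1. NPC2 and SREBF2 had an r of 0.94 with each other, and ABCA1 and SREBF2 one of -0.85. These values are a description over 9 ratios that come from 3 sets sharing slides, and the ratios of INSIG1 ran from 0.21 in AS30 pair C at 3 h to 2.88 in AS30 pair A at 22 h.

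Among named genes in the 23030 probes measured in all 9 ratios, those most like INSIG1 were WDR81 (r 0.980), UGT1A8 (0.976) and KIAA1377 (0.956), and NPC2 followed at 0.953. UGT1A8 shares most of its sequence with the other genes of its locus, so its probe may read them too. Those most like STARD4 were LSS (r 0.983) and CYP51A1 (0.967), both enzymes of cholesterol synthesis, and DFNA5 (0.958). Those most like ABCA1 were EIF1AX (0.974), BUB3 (0.972) and FANCI (0.968).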

How the data were processed

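The 8 genes and the other gene lists were chosen with earlier results of these data known. The authors deposited 1 scanner file per array from Agilent Feature Extraction 10.5.1.1, with spot intensities on a linear scale, and a table of quantile normalized intensities, used as an alternative. From the processed signals, log2 values were quantile normalized over the 18 arrays in R 4.3.3 with limma 3.58.1. Spots not positive and significant, and outlier spots, were left out, spots of a probe were averaged, and probes with over 33% missing values were removed. The probe with the highest mean signal stood for a gene. The methods divide treated arrays by their control without naming the match. Arrays of the same letter were matched here, and the 9 log2 ratios were fitted as 3 classes with 6 residual degrees of freedom. Contrasts of untreated cells came from 18 arrays as 6 groups. The fits were tested on simulated data. The methods name the 3 arrays of a condition biological replicates. Genes named from a list are those called with the 3 largest changes, or the 2 largest where none was called, and a few that this rule names are not reported here. Most of the 18 alternatives changed 1 choice each. The authors' table replaced all steps up to the probe values, and normexp correction started from the mean spot signals in place of the processed ones. The fits with slide also dropped the pairing by letter, as pairs span slides. The number of arrays limits the precision.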

Additional observations from a re-analysis of the deposited data

How the results depend on the processing

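With slide as a fixed block 0 of the 8 genes were called after SM30 and 0 after AS30 at 22 h. That fit keeps 1 treated array for SM30 and 1 control for AS30 at 22 h, each assumed to vary like the other groups, and cannot compare the untreated sets, which share no slide. With slide as a random block 1 was called after AS30 at 3 h, 4 after AS30 at 22 h with SREBF2 added, and 3 between the untreated sets, at an estimated correlation of -0.084 within slides. With probes well above background on all 18 arrays 1 was called after AS30 at 3 h. Leaving out 1 pair gave 0 to 2 calls after SM30, 0 to 2 after AS30 at 3 h, 0 to 5 after AS30 at 22 h, 0 to 1 between AS30 at 22 h and 3 h, and 0 to 4 between the untreated sets. At 22 h the count was 0 without pair A or C, 5 without pair B, and 1 without SM30 pair A or B. Those 5 were INSIG1, STARD4, NPC2, SREBF2 and NPC1. Without the replicate block, which does not pair arrays by letter, 1 was called after SM30, 0 after AS30 at 3 h and 3 after AS30 at 22 h, as with it. The counts in this paragraph are given without the share of all probes called in the same fit. They show how the calls depend on the processing and are no result about the 8 genes. The deviations of arrays of the same letter from their group means correlated from -0.09 to 0.45, so the letters do not clearly pair the samples. No called change of a member reversed its direction in any of the 18 alternatives. The cause of these shifts was not tested. Leaving out any pair also leaves fewer degrees of freedom, both where the count fell and where it rose.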
